A study of Homo sapiens with 27 samples.

Results

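RNA-seq libraries of T47D cells carrying the Splice del mutant of GATA3 (3 libraries) were compared with libraries of T47D cells carrying the empty vector (Empty, 3 libraries). The libraries were chosen by their titles, and these 6 are among 12 RNA libraries and 27 samples in all. T47D is an established line of luminal breast cancer, and the labels give fewer than 10 passages for each sample. Splice del cells expressed the mutant with a 3xTy1 tag from a pHAGE lentiviral vector and Empty cells carried the same vector without a gene, both as puromycin-selected pools. The endogenous GATA3 genes remained in both, so the mutant acted in addition to wild-type GATA3. Each group was 1 pool, and no label states that its libraries came from separate cultures, so the p-values measure only the spread between these libraries. The culture medium differs between the labels and the study's methods and is not settled for these libraries. The other RNA libraries, 3 each of C321fs and A333fs cells, which carry other truncated forms of GATA3, entered the model fit and a direct comparison.

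GATA3 is a zinc finger transcription factor that binds GATA motifs and is needed for the luminal lineage of the mammary gland. It works with the estrogen receptor and FOXA1 in luminal breast cancer cells, where GATA3 is among the most frequently mutated genes. Its C-terminal finger makes the main contact with the GATA motif, and the N-terminal finger modifies binding and contacts cofactors. The Splice del mutation lacks CA at the acceptor of an intron, so that splicing moves to the next AG inside the exon and the reading frame shifts.

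The reference sequence at this acceptor is shown because it fixes which part of the protein the mutant lacks. It is the plus strand of hg38 at chr10:8069433-8069512, and the capitals mark the deleted CA and the next AG.

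GATA3 exon 5 acceptor: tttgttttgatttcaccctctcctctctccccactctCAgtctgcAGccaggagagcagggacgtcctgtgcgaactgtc

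Exon 5 begins at base 8069473 of chromosome 10 and follows codon 308. The next AG ends 7 bases into the exon. The reference frame has 444 codons before the stop, and without these 7 bases it has 352, of which 44 follow codon 308. The first finger lies at codons 264 to 288 and the second at codons 318 to 342, as found by the spacing of their cysteines, so the wild-type sequence of the second finger lies wholly after the junction. The sequence of the introduced construct itself was not analysed here.

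Of 14789 tested genes, 602 rose and 185 fell in Splice del cells both in the counts as deposited and after a correction for GC content and exon length. Among genes that averaged at least 2 CPM in the higher line, the largest increases included secreted and matrix genes (DCN, SPARC), the amino acid transporter gene SLC6A14, the chemokine receptor gene CXCR4 and the glycosyltransferase gene GALNT5. Among genes with many counts, the apocrine genes PIP and AZGP1 and the secreted factors MGP and AGR2 rose. The largest decreases by the same limit included EPHA4, SOX6, TGM2 and COL12A1, and genes with many counts that fell included KRT8, MYC, SLC7A5, INHBB and HSPB8. With a trend over expression level also removed, KRT8 (log2 fold change -0.40) and SLC7A5 (-0.54) were under the fold threshold, and MYC, INHBB and HSPB8 kept their calls. Genes of mitosis, DNA replication, oxidative phosphorylation and the proteasome gave no call in both fits, beside 4.07% up and 1.25% down among all tested genes. Their median log2 fold changes after correction were -0.22, -0.26, -0.21 and -0.19, shifts under the fold threshold.

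The quasi-likelihood test of edgeR was applied with Benjamini-Hochberg adjustment, and a call needed an adjusted p under 0.01 together with a fold change above 1.5. Levels are CPM, counts scaled to a common library size with TMM factors, so they compare libraries and not genes of different length. Before correction 1588 genes (10.7% of those tested) were called, 918 (6.21%) up and 670 (4.53%) down. The corrected fit called 783 up (5.29%) and 235 down (1.59%). Both fits called 602 up (4.07%) and 185 down (1.25%), which is 65.6% of the first group and 27.6% of the second, and these 787 calls (5.32%) are used below. No gene was called in opposite directions, and 181 genes up and 50 down were called in the corrected fit alone. The libraries of the 2 lines did not overlap in 601 and 185 of the genes called in both fits, and over all tested genes this held for 31.7% with higher and 31.3% with lower values in Splice del cells. Of the increases, 353 were over 2-fold, 75 over 4-fold and 25 over 8-fold by the fitted fold change. Of the decreases, 62 were over 2-fold, 5 over 4-fold and 0 over 8-fold. In 20 of the increases and 1 of the decreases the lower line had at most 3 counts in every library, and there only a lower bound on the fold holds.

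The 6 libraries held 27872208 to 36788024 counted fragments, and the chi-square per gene between replicates ran from 2.16 to 8.21, so no library repeats another. The TMM factors lay between 0.884 and 0.943 in Empty and between 1.03 and 1.05 in Splice del libraries. All 12 luminal markers examined were detected. Their summed level was 19024 to 22390 CPM in Empty and 12682 to 13695 CPM in Splice del libraries, and 1 of them (KRT8) fell in both fits. Split after the values were seen, KRT8, KRT18 and KRT19 summed to 14522 to 17637 CPM in Empty and 8503 to 9203 CPM in Splice del libraries, and the other 9 to 4502 to 4753 and 4179 to 4491 CPM. Over the 12 luminal markers the median log2 fold change was -0.34 (-0.18 corrected). Before correction 3 of the 12 were called down and 0 up. EPCAM, CDH1 and ESR1 went against this median, with log2 fold changes of 0.42, 0.21 and 0.23, under the fold threshold. Of 12 fibroblast markers, 5 (COL1A2, PDGFRA, PDGFRB, FAP and POSTN) had at most 3 counts in all 6 libraries. The summed fibroblast level was 84.6 to 97.9 CPM in Empty and 82.1 to 88.6 CPM in Splice del libraries. Of 6 tested fibroblast markers, DCN, LUM and VIM rose and COL3A1 fell in both fits. The median log2 fold change of the 6 was 0.60 (0.77 corrected). Of 10 endothelial markers 6, and of 12 leukocyte markers 7 including PTPRC, were likewise at most at 3 counts. The summed leukocyte level was 5.39 to 7.31 CPM in Empty and 7.65 to 9.40 CPM in Splice del libraries. The 10 endothelial markers summed to 12.5 to 15.0 and 9.87 to 11 CPM, and the 10 basal or myoepithelial markers, of which KRT5 was at the floor, to 83.9 to 94.2 and 98.6 to 108 CPM. In a bulk library fewer cells of a type and less RNA per cell cannot be told apart.

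GATA3 (chromosome 10 from 8054704 to 8075201) had 1247, 1339.7 and 1257 CPM in the Empty libraries and 962, 992 and 1050.5 CPM in the Splice del libraries. All Splice del libraries lay below all Empty libraries, but its log2 fold change of -0.36 (-0.25 after correction) was under the fold threshold. Fragments from the introduced coding sequence count to the same gene.

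The changes followed the GC content of the exons before correction. In the decile of genes with the lowest GC content (27.3% to 39.2%), 167 were called up and 6 down. In the decile with the highest (62.5% to 87.9%), 34 were called up and 190 down. Per 10 percentage points of GC content, log2 CPM sloped by 0.139 ± 0.0421 (SD, n = 3) in Empty and by -0.0792 ± 0.0479 in Splice del libraries, a difference of -0.218 (exact permutation test over libraries, two-sided, p = 0.1, the smallest that 3 against 3 allow). All libraries shared 1 sequencing lane, and the slope and the line cannot be told apart.

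Once each library had been corrected for its trend over GC content and then exon length, the medians of all 10 deciles lay between -0.03 and 0.01. In the decile with the lowest GC content 62 genes were called up in both fits and 6 down, and in the highest 34 and 17. Spearman's rho of the log2 fold change with GC content, taken over genes that are no replicates of each other, moved from -0.51 to -0.03. The common dispersion of the fit, which measures the spread within lines, fell from 0.00453 to 0.00225. The median GC content was 48.3% in genes that rose and 53% in genes that fell in both fits, beside 49.6% in all tested genes. It was 40.7% in the 316 genes called up only before correction and 60.6% in the 485 called down only before correction.

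**Figure D1:**
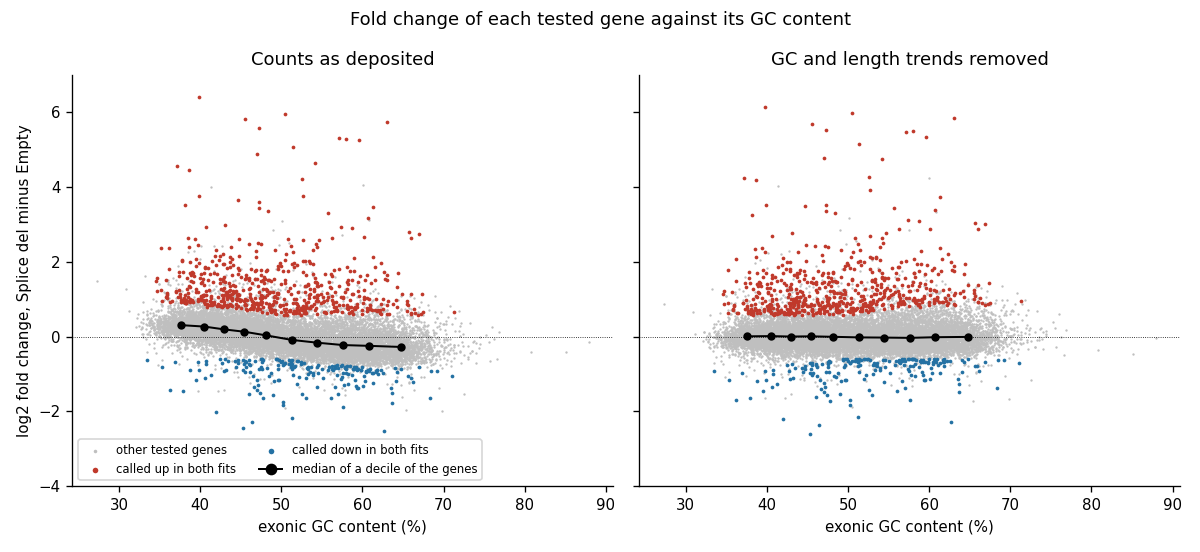
Log2 fold change of each tested gene (y axis, Splice del minus Empty) against the GC content of its exons (x axis, percent), from the counts as deposited (left) and with trends over GC content and exon length removed (right). Red and blue points are genes called up and down in both fits, and black points are medians of deciles of the genes, which run from 0.31 to -0.28 on the left and stay between -0.03 and 0.01 on the right.

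The expression level also went with the calls. The median log2 fold change was 0.29 in the decile with the lowest mean CPM of the 6 libraries and -0.25 in the decile with the highest, and 0.30 and -0.19 after the GC and length correction. Of the 602 increases in both fits, 96, 186 and 145 lay in the 3 lowest deciles, and 3, 11 and 6 in the 3 highest. Decreases were spread more evenly, with 27 in the highest decile and 36 in the second lowest. A further fit that also removed a trend over level, chosen after seeing these values, called 476 up and 130 down in common with both other fits. Of 103 genes named by the rule below and called in both fits, 91 were also called there. The other 12 were KRT8, FLNA, SLC7A5, SLC7A1, SHMT2, FKBP4, JAG2, CACNG4, EGF, EREG, EGLN3 and CRYAB. GATA3 had a log2 fold change of 0.058 in that fit.

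**Figure D2:**
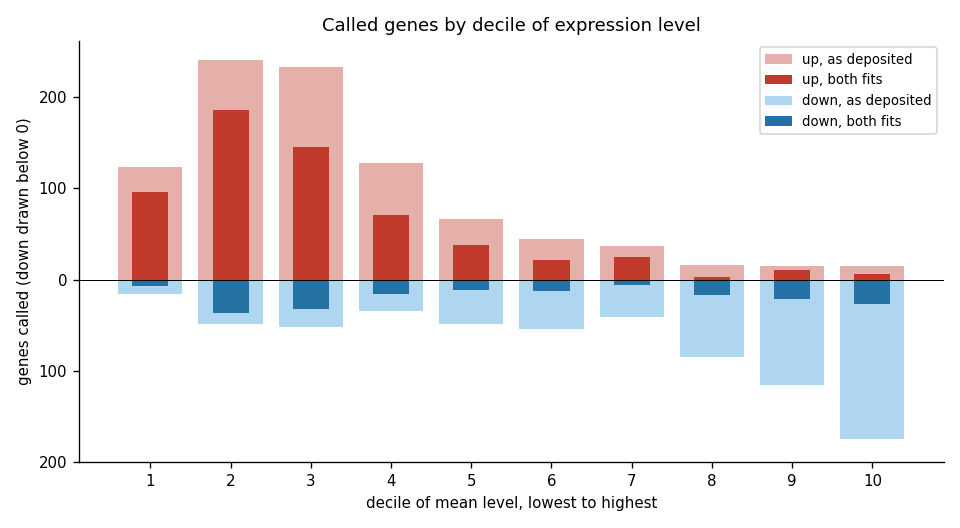
Number of genes called (y axis, up above and down below 0) in each decile of mean CPM over the 6 libraries (x axis, lowest to highest). Pale bars are calls from the counts as deposited and dark bars calls in both fits, which hold 186 increases in the second decile and 6 in the decile with the highest level.

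Genes were named by a rule: the 10 largest increases and 10 largest decreases among genes called in both fits whose libraries did not overlap and whose higher line averaged at least 2 CPM, and up to 4 members of each gene list below with the smallest adjusted p.

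The largest increase in a matrix gene was that of DCN (chromosome 12 from 91145258 to 91183029), which encodes decorin, a small proteoglycan that binds collagen. DCN had 0.102, 0.0321 and 0.0694 CPM in the Empty libraries and 5.57, 6.65 and 5.71 CPM in the Splice del libraries. With at most 3 counts in each Empty library, it was at least 59.4-fold higher in Splice del cells. SPARC (chromosome 5 from 151661096 to 151687054) encodes osteonectin, a secreted glycoprotein that binds collagen and calcium. SPARC had 0.204, 0.257 and 0.278 CPM in the Empty libraries and 6.61, 7.3 and 8.11 CPM in the Splice del libraries. Its fitted change was 4.87 on the log2 scale (standard error 0.17, adjusted p = 8.43e-12 by the quasi-likelihood test of edgeR). Both genes had all 3 Splice del libraries far above all Empty libraries. Some SPARC exons overlap a gene on the other strand (CTB-113P19.1), and the counting ignored the strand.

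SLC6A14 (chromosome X from 116436579 to 116461458) encodes a broad neutral and cationic amino acid transporter of the cell membrane. It had 3.63, 4.55 and 5.45 CPM in the Empty libraries and 112, 107 and 102 CPM in the Splice del libraries. Its log2 fold change was 4.56 (standard error 0.11, adjusted p = 1.57e-13 by the quasi-likelihood test of edgeR) and 4.25 after correction. Every Splice del library was above 100 CPM and every Empty library below 6 CPM. GALNT5 (chromosome 2 from 157257828 to 157311401), which encodes an enzyme that starts O-linked glycosylation of mucin-type proteins, had 0.102, 0.224 and 0.104 CPM in the Empty libraries and 8.49, 8.13 and 8.53 CPM in the Splice del libraries. GPRC5B (chromosome 16 from 19858971 to 19885634), an orphan receptor of the G protein-coupled class, had 0, 0.128 and 0.174 CPM in the Empty libraries and 4.26, 3.9 and 4.32 CPM in the Splice del libraries. CYP4F22 (chromosome 19 from 15508525 to 15552317), which encodes a fatty acid omega-hydroxylase of skin ceramide synthesis, had 0.271, 0.192 and 0.174 CPM in the Empty libraries and 8.36, 7.33 and 9.86 CPM in the Splice del libraries. These 3 genes were close to the counting floor in Empty cells and between 3.90 and 9.86 CPM in every Splice del library, and their log2 fold changes of 5.81, 5.31 and 5.29 rest on few Empty counts.

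CXCR4 (chromosome 2 from 136114349 to 136118155), the receptor of the chemokine CXCL12, had 0.577, 0.353 and 0.59 CPM in the Empty libraries and 6.11, 6.03 and 6.97 CPM in the Splice del libraries. CEACAM1 (chromosome 19 from 42507306 to 42528509), a cell adhesion molecule of the immunoglobulin family, rose from 0.336 ± 0.15 to 3.68 ± 0.20 CPM (SD, n = 3). PPP1R1B (chromosome 17 from 39626924 to 39636625), which encodes the phosphatase inhibitor DARPP-32, rose from 0.941 ± 0.109 to 8.54 ± 0.74 CPM. The libraries of the lines did not overlap in any of these 3 genes. FIBCD1 (chromosome 9 from 130902438 to 130939068), a membrane receptor that binds chitin and other acetylated groups, had 8.04, 7.25 and 8.61 CPM in the Empty libraries and 51.9, 55.3 and 53.7 CPM in the Splice del libraries. The log2 fold changes of CXCR4, CEACAM1, PPP1R1B and FIBCD1 were 3.65, 3.44, 3.17 and 2.75, and 3.50, 3.35, 3.40 and 3.0 after correction.

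**Figure D3:**
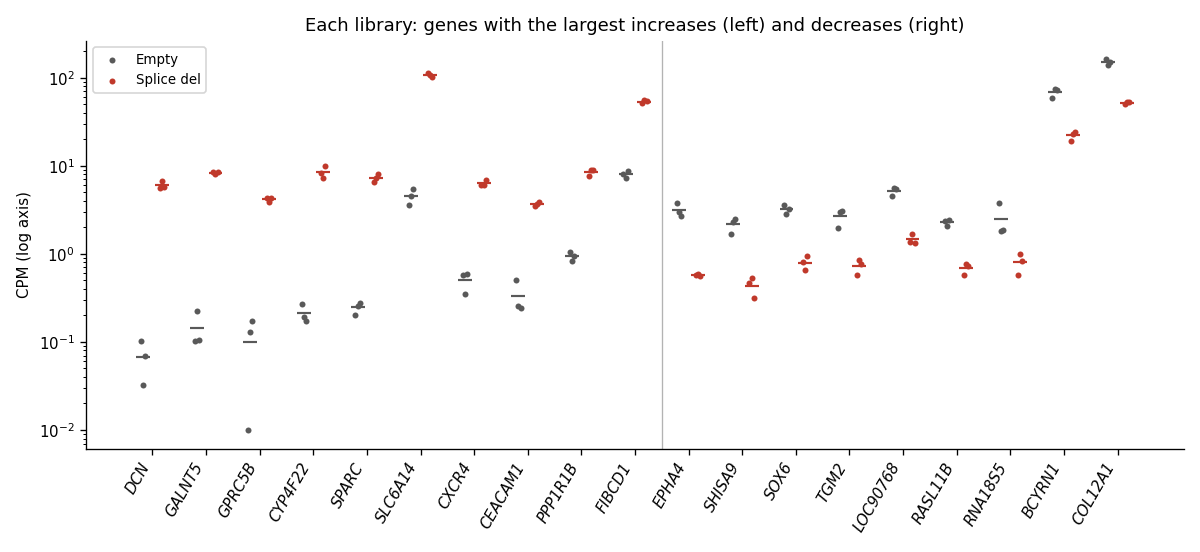
CPM in each library (points, log axis) with the line's mean (bar) for the 10 largest increases (left) and 9 of the 10 largest decreases (right) in both fits, Empty in grey and Splice del in red; a value of 0 is drawn at 0.01 CPM. The libraries of the 2 lines do not overlap in any of these genes, which the rule required, and SLC6A14 goes from 3.63 to 5.45 CPM in Empty to 102 to 112 CPM in Splice del libraries.

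Among genes that averaged at least 2 CPM in the higher line, the largest decrease was that of EPHA4 (chromosome 2 from 221418027 to 221574202), a receptor tyrosine kinase for ephrins. It had 3.73, 3.01 and 2.71 CPM in the Empty libraries and 0.568, 0.591 and 0.557 CPM in the Splice del libraries. Its log2 fold change was -2.45 (standard error 0.19, adjusted p = 8.62e-08 by the quasi-likelihood test of edgeR) and -2.59 after correction. SHISA9 (chromosome 16 from 12901620 to 13240416), an auxiliary subunit of AMPA receptors, fell from 2.16 ± 0.439 to 0.437 ± 0.112 CPM (SD, n = 3). SOX6 (chromosome 11 from 15966449 to 16476388), a transcription factor of the SOX family, fell from 3.22 ± 0.387 to 0.797 ± 0.145 CPM. TGM2 (chromosome 20 from 38128461 to 38165298), which encodes the protein crosslinking enzyme transglutaminase 2, fell from 2.67 ± 0.612 to 0.73 ± 0.148 CPM. All of these were lowly expressed in both lines, and every Splice del library was below 1 CPM.

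RASL11B (chromosome 4 from 52862328 to 52866835), a small GTPase of the RAS superfamily, fell from 2.29 ± 0.18 to 0.689 ± 0.107 CPM. The uncharacterized LOC90768 (chromosome 4 from 182138660 to 182144515) fell from 5.22 ± 0.552 to 1.46 ± 0.197 CPM. COL12A1 (chromosome 6 from 75084326 to 75205907), which encodes a collagen that decorates collagen fibrils, had 162, 141 and 153 CPM in the Empty libraries and 50.2, 52.9 and 53.1 CPM in the Splice del libraries. COL12A1 showed no overlap between the lines, and its log2 fold change was -1.54 (standard error 0.11, adjusted p = 3.62e-08 by the quasi-likelihood test of edgeR). The RNA genes BCYRN1 (log2 fold change -1.64) and RNA18S5 (-1.64) are uncertain, since each has near-identical copies. RNA18S5 also lost its call without Empty replicate 1 (adjusted p = 0.0287 by the quasi-likelihood test of edgeR) or without Splice del replicate 1 (adjusted p = 0.0220).

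The letters AGATAA, and besides them the letters TGATAA, the letters AGATAG and the letters TGATAG, all forms of the GATA motif, were searched on both strands in the 250 bases before each gene start of RefSeq (GRCh38.p14). Of 15384 windows of 10620 tested genes, 14.2% held at least 1 match. The share was 21.1% of 644 windows of 421 genes that rose in both fits and 13.7% of 175 windows of 120 genes that fell. The windows of the genes that rose had a median GC content of 59.2%, beside 64.4% in all windows and 64.8% in those of genes that fell, and these AT-rich letters depend on it, so the part of GC content in the shares was not tested. The windows of SLC6A14 (chrX:116436356-116436605, plus strand) and SPARC (chr5:151686916-151687165, minus strand) are shown as leading genes with a match, which is in capitals.

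SLC6A14: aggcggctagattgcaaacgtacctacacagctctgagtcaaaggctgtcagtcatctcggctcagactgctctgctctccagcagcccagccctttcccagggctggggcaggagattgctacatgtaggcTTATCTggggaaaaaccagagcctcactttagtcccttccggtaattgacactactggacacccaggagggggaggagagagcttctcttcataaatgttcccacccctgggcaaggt

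SPARC: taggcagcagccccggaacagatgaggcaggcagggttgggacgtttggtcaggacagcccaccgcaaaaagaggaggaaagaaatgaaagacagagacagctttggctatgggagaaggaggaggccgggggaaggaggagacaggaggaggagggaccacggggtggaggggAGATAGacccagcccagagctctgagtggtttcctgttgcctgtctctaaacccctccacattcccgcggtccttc

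The match TTATCT in SLC6A14 begins 118 bases before the start and AGATAG in SPARC 76 bases before it. The SPARC start used here lies inside the span of the counted gene given above, and so does its match. A match is a description of the letters and not a binding site. By ChIP-seq the study found a partial motif, AGAT, at sites bound by the mutants. It placed many sites of altered GATA3 binding in introns or between genes. The search above was for the full motif before gene starts, and the sites bound by the mutant were not examined. The windows of PIP and EPHA4 held no match.

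Functions beyond the interferon and ribosome genes were described with 30 gene lists written from general knowledge. Members are counted as called in both fits, and among all tested genes 4.07% rose and 1.25% fell, with median log2 fold changes of 0.03 before and -0.0048 after correction. With DESeq2, CCL5, TNFAIP3, FBLN1, INHBE and CRYAB, named below, were not called in both fits (larger adjusted p of each 0.0119 to 0.0225). Some members named below as further examples fall outside the naming rule and were chosen after their values were seen.

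Mammary secretory and apocrine genes had the highest share of increases among the lists. Of 21 tested members 6 rose and 1 fell, with a median log2 fold change of 0.56 (0.58 corrected, 0.35 with the level trend removed as well). In that further fit the medians of estrogen receptor targets (0.42) and matricellular genes (0.41) were higher. AZGP1 (chromosome 7 from 99966727 to 99976112), which encodes zinc-alpha-2-glycoprotein, an apocrine product that promotes lipid breakdown, had 94.4, 91.1 and 79.4 CPM in the Empty libraries and 482, 478 and 507 CPM in the Splice del libraries. PIP (chromosome 7 from 143132081 to 143139741), the prolactin-induced protein of apocrine cells, had 79.1, 85.7 and 77 CPM in the Empty libraries and 278, 295 and 287 CPM in the Splice del libraries. Their log2 fold changes were 2.47 and 1.83 (adjusted p = 2.41e-13 and 5.44e-12 by the quasi-likelihood test of edgeR), and the lines did not overlap. CEACAM1 (above), APOD, which encodes the lipid carrier apolipoprotein D, and the further members CEACAM6 and HPGD also rose. APOD went from 14.5 ± 1.13 to 22.5 ± 0.53 CPM, and without Empty replicate 3 its log2 fold change was 0.57 and below the fold threshold. CLU, which encodes the chaperone clusterin, fell from 1655 ± 169 to 1067 ± 53.8 CPM.

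Of 40 estrogen receptor targets 8 rose and 1 fell, with a median of 0.25 (0.33 corrected, 0.42 with the level trend removed as well). AGR2 (chromosome 7 from 16792640 to 16805114), a disulfide isomerase of the secretory pathway, had 952, 1080.1 and 1033 CPM in the Empty libraries and 2038, 2056 and 2007 CPM in the Splice del libraries. TFF3, which encodes a trefoil peptide of mucosal secretions, rose from 62.9 ± 2.5 to 162 ± 10.5 CPM (SD, n = 3). The libraries of the lines were well apart in both genes. BCL2, the inhibitor of apoptosis, rose from 2.11 ± 0.342 to 6.62 ± 0.907 CPM (SD, n = 3), and TFF1, NRIP1, RAB31, WISP2 and SERPINA3 also rose. FKBP4, a co-chaperone of steroid receptors, fell from 1878 ± 137 to 1183 ± 40.6 CPM. Its decrease was below the fold threshold with upper-quartile scaling (log2 fold change -0.58). GREB1, MYBL1, RERG and PDZK1 were among the members without a call in both fits. Of 35 luminal transcription factors 2 rose and 1 fell. TFAP2B, an AP-2 factor, rose from 0.111 ± 0.0466 to 1.17 ± 0.257 CPM, and STAT5A, which mediates prolactin signalling, from 1.44 ± 0.446 to 3.04 ± 0.778 CPM. GRHL3, a grainyhead factor of epithelial barriers, fell from 5.58 ± 0.484 to 3.53 ± 0.58 CPM. STAT5A had no call without Empty replicate 1 (adjusted p = 0.0140 by the quasi-likelihood test of edgeR) or without Splice del replicate 3 (adjusted p = 0.0108). GRHL3 was below the fold threshold without Splice del replicate 2 (-0.53) and with upper-quartile scaling (-0.57).

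Extracellular matrix genes rose more often than they fell, as did all tested genes (4.07% rose and 1.25% fell). Of 28 matricellular and small leucine-rich proteoglycan genes 7 rose and 1 fell (median 0.34, 0.39 corrected). MGP (chromosome 12 from 14881181 to 14885919), an inhibitor of calcification, had 779.8, 820.0 and 748 CPM in the Empty libraries and 1870.2, 1884 and 1909 CPM in the Splice del libraries. Its log2 fold change was 1.27, and the lines did not overlap. The further members LUM, which encodes lumican and rose from 0.158 ± 0.0725 to 1.82 ± 0.505 CPM, MFAP2, EFEMP2 and FBLN1 also rose. CYR61, a matricellular gene of the CCN family, fell from 41.4 ± 3.45 to 25.1 ± 0.337 CPM.

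Of 43 collagens, laminins and integrins 6 rose and 2 fell (median 0.24, 0.29 corrected). COL27A1 (chromosome 9 from 114155545 to 114312516), a cartilage-type fibrillar collagen, rose from 6.41 ± 0.578 to 27.9 ± 1.97 CPM (SD, n = 3). COL11A1, another fibrillar collagen, had 1 count in each Empty library, and its CPM were 0.0339, 0.0321 and 0.0347 CPM in the Empty libraries and 1.5, 1.65 and 2.3 CPM in the Splice del libraries. Against the floor of 3 counts it was at least 18-fold higher. ITGB8, an integrin subunit that activates latent TGF-beta, rose from 2.36 ± 0.0599 to 7.75 ± 0.327 CPM, and some of its exons overlap LOC101927811. ITGB6, ITGB7 and COL21A1 rose, whereas COL3A1 fell from 5.13 ± 0.222 to 2.42 ± 0.229 CPM together with COL12A1. DCN, LUM, SPARC and COL11A1 thus rose where COL3A1 and COL12A1 fell, and the fibroblast markers at the floor are given above; their part in these changes was not tested.

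Of 50 extracellular proteases and inhibitors 11 rose and 3 fell (median 0.39, 0.34 corrected). The serine protease gene PRSS23 (chromosome 11 from 86791059 to 86952903) had 15.1, 15.4 and 14.2 CPM in the Empty libraries and 75.7, 78.9 and 81.9 CPM in the Splice del libraries. TMPRSS3, a transmembrane serine protease, rose from 3.93 ± 0.698 to 24 ± 0.513 CPM (SD, n = 3). The increases of both were over 4-fold, and PRSS23 shares exonic bases with FZD4. SERPINI1, which encodes the protease inhibitor neuroserpin, rose from 16.2 ± 0.671 to 38.5 ± 0.758 CPM. TIMP3, an inhibitor of metalloproteases, was at least 9.39-fold higher, at 0.877 to 1.04 CPM in Splice del libraries. TIMP1, SERPINB5, SERPINE2 and CTSS were further increases, and MMP16, ADAMTS15 and SPINK13 fell.

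Of 53 NF-kappaB, cytokine and chemokine genes 13 rose and 1 fell (median 0.38, 0.29 corrected). Besides CXCR4, TNFRSF11A (chromosome 18 from 62325287 to 62387710), which encodes the RANK receptor of mammary and bone biology, had 4.82, 3.98 and 4.24 CPM in the Empty libraries and 14.9, 17 and 16.7 CPM in the Splice del libraries. STEAP4, a metalloreductase induced by cytokines, rose from 5.8 ± 0.214 to 19.4 ± 0.824 CPM (SD, n = 3). PTGS1, a cyclooxygenase of prostaglandin synthesis, rose from 0.761 ± 0.134 to 4.08 ± 0.325 CPM (SD, n = 3). In these genes the lowest Splice del library was over 2-fold above the highest Empty library. Ligands and inhibitors that rose were CXCL14, CCL5 and TNFSF10, and TNFAIP3, BIRC3, TRAF1 and SOCS2. CNTFR, a receptor of the interleukin-6 family, fell from 0.469 ± 0.167 to 0.0803 ± 0.0228 CPM, and DESeq2 gave it an adjusted p of 0.00106 before correction and none after it. The leukocyte markers CD14 and ITGAM rose, with the summed level of that list given above, and their part in these increases was not tested.

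Among signalling pathways both directions occurred. Of 48 TGF-beta, activin and BMP genes 4 rose and 5 fell (median 0.09, 0.04 corrected). The ligand gene INHBB (chromosome 2 from 120346143 to 120351807), a subunit of activin B, had 97.1, 101 and 96.5 CPM in the Empty libraries and 38.5, 37.8 and 39.7 CPM in the Splice del libraries. The antagonist gene FSTL3 and the ligand gene INHBE also fell. MSX2, a homeobox gene induced by BMP, fell from 84.3 ± 4.53 to 37.6 ± 0.74 CPM (SD, n = 3). The signal transducer SMAD3 rose from 8.67 ± 0.675 to 20.1 ± 1.57 CPM, and the receptor genes TGFBR3, ACVR1C and BMPR1B rose too.

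Of 55 guidance genes 4 rose and 4 fell. NTN4, a netrin of basement membranes, rose from 20.7 ± 1.21 to 55.7 ± 1.79 CPM (SD, n = 3), as did SEMA3E, SEMA3A and EPHA7. EFNA5, a ligand of EPH receptors, fell from 26.1 ± 0.306 to 14.1 ± 1.07 CPM, as did EPHA4, SEMA3G and UNC5B. Of 37 WNT genes 4 rose and 1 fell. LGR4, a receptor of R-spondins, rose from 47.4 ± 2.61 to 87.1 ± 4.51 CPM, and the inhibitor DKK1 from 5.97 ± 0.521 to 12.6 ± 1.05 CPM. WNT3 and AXIN2 rose at low levels, and the receptor gene FZD9 fell. Of 38 Notch genes 3 rose (HES2, MFNG and MAMLD1) and the ligand gene JAG2 fell from 78.8 ± 3.29 to 43.8 ± 2.9 CPM. Of 64 growth factor and MAPK feedback genes 2 rose and 1 fell. The transcription factor gene MYC had 123, 138 and 124 CPM in the Empty libraries and 62, 61.7 and 65.7 CPM in the Splice del libraries, with no overlap between the lines. EGF and EREG, ligands of the EGF receptor, rose from 4.96 ± 0.496 to 8.96 ± 0.158 CPM and from 0.177 ± 0.0643 to 0.642 ± 0.0951 CPM.

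Keratins and other intermediate filament genes had the highest share of decreases among the lists. Of 19 tested members 1 rose and 3 fell (median -0.30, -0.22 corrected, -0.06 with the level trend removed as well). In that further fit KRT8 lost its call (log2 fold change -0.40), and 2 of the decreases remained. KRT8 (chromosome 12 from 52897187 to 52949866), the luminal keratin, had 6957, 8479 and 7118 CPM in the Empty libraries and 3566, 3602 and 3923 CPM in the Splice del libraries. KRT4 fell from 3.62 ± 0.448 to 1.67 ± 0.0969 CPM and KRT13 from 2.04 ± 0.336 to 0.858 ± 0.102 CPM. VIM, the intermediate filament of mesenchymal cells, rose from 3.02 ± 0.431 to 8.34 ± 0.199 CPM (SD, n = 3). Exons of KRT8 overlap KRT18, and those of VIM overlap VIM-AS1. Of 66 junction genes 3 rose and 1 fell. CLDN1, a tight junction protein, fell from 154 ± 9.99 to 75 ± 0.744 CPM, and GJA1, which encodes the gap junction protein connexin 43, rose from 2.16 ± 0.398 to 7.69 ± 0.412 CPM. CGNL1 and JAM2 rose too.

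Of 24 EMT transcription factors and regulators 4 rose and 1 fell (median -0.12, -0.02 corrected). SOX9 rose from 75.5 ± 0.33 to 123 ± 7.16 CPM (SD, n = 3), and FOXC1 fell from 9.26 ± 0.293 to 5.13 ± 0.733 CPM. EMP3, SERPINE2 and MEF2C rose at lower levels. Of 120 small GTPase and actin regulator genes 6 rose and 2 fell. CHN2, a GTPase activator for RAC, rose from 0.777 ± 0.206 to 3.44 ± 0.159 CPM, and PALMD, which encodes palmdelphin, from 3.78 ± 0.38 to 14.4 ± 1.22 CPM. FLNA, the actin crosslinker filamin A, fell from 532 ± 44.5 to 285 ± 17.8 CPM.

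Among amino acid transporters 4.0% rose and 8.0% fell, beside 4.07% and 1.25% of all tested genes. The shares were 1.89% and 5.66% in ER stress and ATF4 target genes and 1.96% and 3.92% in cytosolic heat shock genes. With the level trend also removed, SLC7A5, SLC7A1, SHMT2, FKBP4 and CRYAB lost their calls. Besides SLC6A14, 2 of 25 amino acid transporters changed, and both fell. SLC7A5 (chromosome 16 from 87830023 to 87869494), the large neutral amino acid transporter LAT1, had 522, 598 and 563 CPM in the Empty libraries and 289, 270.4 and 295 CPM in the Splice del libraries. SLC7A1, a cationic amino acid transporter, fell from 81 ± 1.84 to 49.5 ± 0.677 CPM (SD, n = 3). Of 53 ER stress and ATF4 target genes 1 rose (DDIT4) and 3 fell. ASNS, asparagine synthetase, fell from 65.8 ± 5.02 to 41.4 ± 1.56 CPM, SHMT2, the mitochondrial serine hydroxymethyltransferase, from 456 ± 37.4 to 247 ± 6.29 CPM, and CHAC1, a glutathione-degrading enzyme, from 6.16 ± 0.59 to 3.12 ± 0.601 CPM. With upper-quartile scaling ASNS was below the fold threshold (-0.58). Exons of SHMT2 overlap NDUFA4L2. Of 51 cytosolic heat shock genes 1 rose and 2 fell. HSPB8 (chromosome 12 from 119178790 to 119194746), a small heat shock protein of selective autophagy, had 66.7, 72.2 and 65.4 CPM in the Empty libraries and 23, 22.8 and 25.2 CPM in the Splice del libraries. Its log2 fold change was -1.52 (standard error 0.06, adjusted p = 5.9e-11 by the quasi-likelihood test of edgeR). The other 2 were FKBP4, which fell, and CRYAB, which rose but had no call with DESeq2 (adjusted p = 0.0183), with a replicate block (adjusted p = 0.0123 by the quasi-likelihood test of edgeR) or without any 1 of the Empty libraries or without Splice del replicate 1 (adjusted p = 0.0149 to 0.0564 by the quasi-likelihood test of edgeR).

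Of 70 cytochrome P450, conjugation and retinoid genes 10 rose and 3 fell (median 0.05, 0.04 corrected). CYP4X1 rose from 16.1 ± 1.25 to 32.8 ± 0.936 CPM (SD, n = 3), and CYP2S1 fell from 29.7 ± 2.01 to 13 ± 0.946 CPM. ABCG1, an exporter of cholesterol, rose from 7.16 ± 0.421 to 13.9 ± 0.425 CPM. The retinoic acid hydroxylase genes CYP26A1 and CYP26B1 and the sterol hydroxylase gene CYP27A1 rose, and SULT2B1 and HSD17B8 fell. Of 57 iron, copper and zinc genes 3 rose, all of the STEAP family of metalloreductases. STEAP1 (chromosome 7 from 90154375 to 90164827) had 4.38, 4.3 and 5.1 CPM in the Empty libraries and 20.8, 21.2 and 18.8 CPM in the Splice del libraries. STEAP2 rose from 15.7 ± 0.96 to 35.9 ± 2.99 CPM. In the cholesterol and fatty acid list 2 of 47 genes rose. PNPLA3, a lipase of lipid droplets, rose from 8.58 ± 0.478 to 15.7 ± 0.738 CPM, and THRSP, whose exons overlap NDUFC2, from 0.188 ± 0.0942 to 0.811 ± 0.124 CPM. In the hypoxia and glycolysis list 3 of 43 genes rose (DDIT4, EGLN3 and STC1), and HK2, hexokinase 2, fell from 18 ± 0.927 to 10.9 ± 1.27 CPM.

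Genes best known from neurons changed in both directions. Of 77 synaptic and neurotransmitter genes 8 rose and 7 fell (median 0.07, 0.15 corrected). The glutamate receptor gene GRM4 rose from 0.768 ± 0.121 to 4.88 ± 0.442 CPM (SD, n = 3), and RIMS2, a protein of vesicle release, from 1.51 ± 0.249 to 5.79 ± 0.646 CPM. The kainate receptor gene GRIK4 fell from 35.5 ± 1.19 to 17.9 ± 1.23 CPM, as did GRIK3, NLGN1, SYT17 and RIMS1. Of 76 ion channel genes 4 rose and 6 fell. CLIC6 (chromosome 21 from 34669389 to 34718221), a chloride intracellular channel protein, had 59.8, 56.2 and 59.2 CPM in the Empty libraries and 102, 109 and 115 CPM in the Splice del libraries. SCN9A, a sodium channel whose exons overlap LOC101929680, rose from 0.316 ± 0.0965 to 1.67 ± 0.187 CPM. The calcium channel genes CACNA1D and CACNG4 fell from 7.22 ± 0.649 to 3.69 ± 0.115 CPM and from 131 ± 10.3 to 76.3 ± 2.34 CPM, and CACNG4 was just below the fold threshold with the GC trend alone removed (-0.58). Of 79 glycosyltransferase and sulfotransferase genes 7 rose and 1 fell. Besides GALNT5, the sialyltransferase gene ST8SIA1 of ganglioside synthesis rose from 0.115 ± 0.106 to 1.58 ± 0.116 CPM, CHSY3 from 0.895 ± 0.259 to 3.1 ± 0.465 CPM and GALNT7 from 24.9 ± 0.262 to 47.3 ± 3.15 CPM.

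Growth and housekeeping lists gave no call in both fits. None of 71 mitosis genes, 66 DNA replication genes, 75 oxidative phosphorylation genes or 44 proteasome genes was called up, and 5, 8, 9 and 3 were called down before correction only (quasi-likelihood test of edgeR). At an unadjusted p under 0.05, 7, 3, 3 and 8 of their members were higher and 32, 38, 53 and 23 lower, and DESeq2 likewise called none in both fits. Their median log2 fold changes were -0.03, -0.18, -0.33 and -0.20, and -0.22, -0.26, -0.21 and -0.19 after correction. The adjusted p was below 0.01 for 28, 34, 45 and 24 of them, most with a fold under the threshold. In the corrected fit alone, 2 oxidative phosphorylation genes were called down. These lists lie at high levels, and with the level trend also removed their medians were -0.05, -0.15, -0.06 and -0.05. In the 3 highest deciles of level, 0.203% to 0.744% of all tested genes rose and 1.15% to 1.83% fell in both fits.

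**Figure D4:**
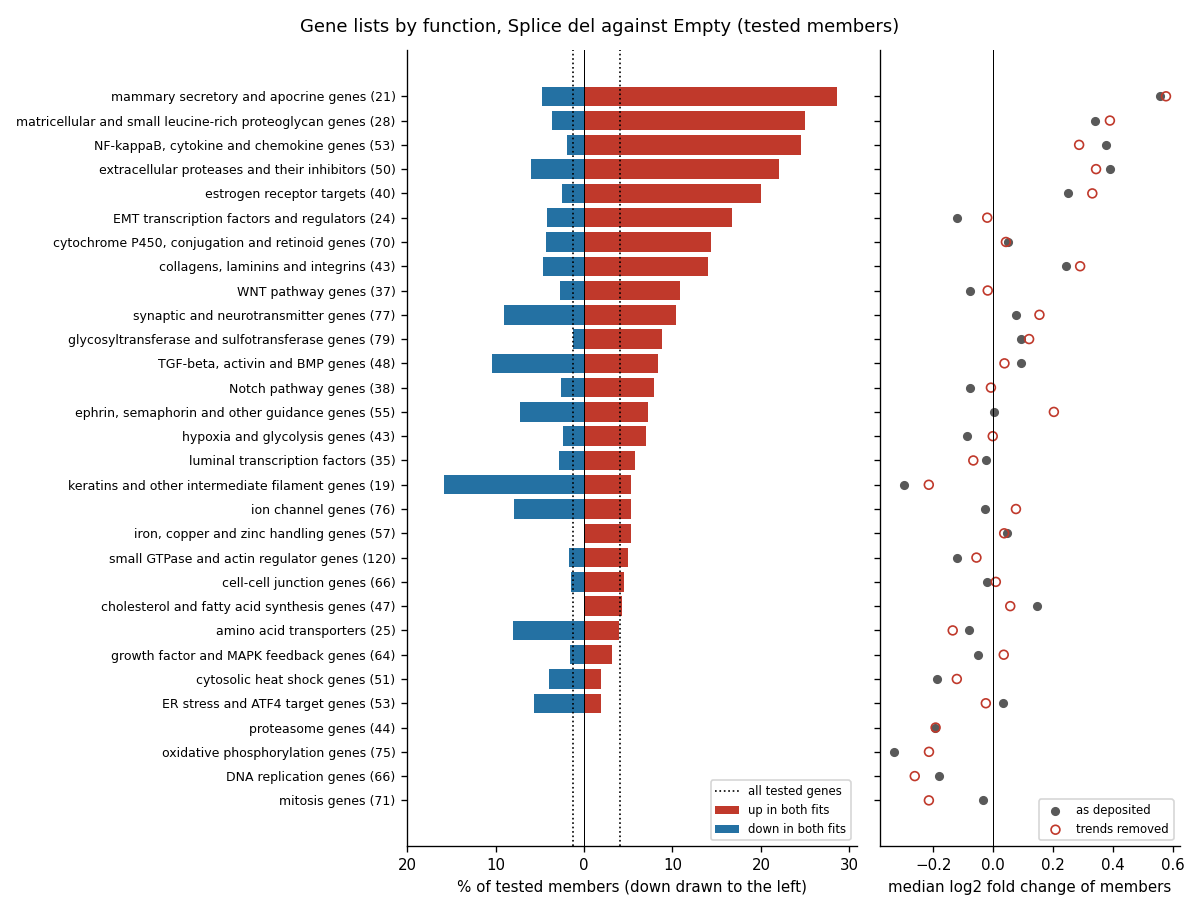
Share of the tested members of each list (number in brackets) called up (red) or down (blue, drawn to the left) in both fits, with dotted lines for all tested genes (4.07% up, 1.25% down), and the median log2 fold change of the members before (filled) and after correction (open). The share of increases is 28.6% in mammary secretory genes and 0 in the lists of mitosis, DNA replication, oxidative phosphorylation and the proteasome.

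Some abundant genes were called only before correction. By mean CPM, the first of those called up were TMEM123, RABEP1 and SEMA3C, with log2 fold changes of 0.67, 0.73 and 0.63 before and 0.38, 0.49 and 0.34 after correction. The first of those called down were ACTB, which encodes beta-actin, KRT19 and the elongation factor gene EEF2. ACTB went from 6995 ± 731 to 4298 ± 261 CPM (SD, n = 3), and its log2 fold change moved from -0.70 to -0.54, KRT19 from -0.64 to -0.36 and EEF2 from -0.65 to -0.44. Without Empty replicate 2, KRT19 (-0.55) and EEF2 (-0.58) were below the fold threshold before correction too.

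Splice del cells were compared directly with the other mutant lines in the same model. Over all tested genes 368 (2.49%) differed from C321fs cells and 338 (2.29%) from A333fs cells in both fits, and 43 (0.291%) differed from both in the same direction. Of the 787 genes called against Empty, 212 differed from C321fs cells, 119 from A333fs cells and 507 from neither line. These genes were chosen by their Splice del values, which also enter the direct tests, so nothing is read from the direction of the differences. Against C321fs cells 203 of the 212 lay further from Empty in Splice del cells and 9 nearer, and against A333fs cells 97 of the 119 further and 22 nearer.

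Of the 103 genes named by the rule and called against Empty, 13 differed from both lines in the same direction. Among all 787 called genes, 33 lay further from Empty in Splice del cells than in both lines. The 103 genes were likewise chosen by their Splice del values, so the values below only describe them. AZGP1 had 489 ± 15.7 CPM in Splice del cells against 160.3 ± 6.23 in C321fs, 266 ± 9.65 in A333fs and 88.3 ± 7.86 CPM in Empty cells (SD, n = 3 each). FIBCD1 had 53.6 ± 1.73 CPM in Splice del cells against 16.2 ± 3.78 in C321fs, 19.2 ± 0.816 in A333fs and 7.97 ± 0.685 CPM in Empty cells. TFF3 had 162 ± 10.5 CPM in Splice del cells against 52 ± 10.2 in C321fs, 96.1 ± 4.97 in A333fs and 62.9 ± 2.5 CPM in Empty cells. In these secreted and membrane genes the Splice del libraries were the highest of the 4 lines, by log2 differences of 1.61, 1.72 and 1.64 against C321fs and 0.88, 1.48 and 0.75 from A333fs cells (largest adjusted p = 8.76e-05 by the quasi-likelihood test of edgeR). CLIC6 had 109 ± 6.65 CPM in Splice del cells against 55.2 ± 5.47 in C321fs, 62.4 ± 1.1 in A333fs and 58.4 ± 1.93 CPM in Empty cells, so that both other mutant lines lay close to Empty. EPHA4 had 0.572 ± 0.0173 CPM in Splice del cells against 1.26 ± 0.102 in C321fs, 2.26 ± 0.274 in A333fs and 3.15 ± 0.525 CPM in Empty cells, with the lowest values in Splice del cells.

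DCN and SLC6A14 did not differ from both lines in the same direction. DCN was lower than in A333fs cells (log2 difference -1.04, adjusted p = 8.07e-06 by the quasi-likelihood test of edgeR) and higher than in C321fs cells, where at most 1 count was found in each library. SLC6A14 had 107 ± 5.15 CPM in Splice del cells against 20.1 ± 1.89 in C321fs, 89.2 ± 6.12 in A333fs and 4.55 ± 0.911 CPM in Empty cells. Of the 103 genes, 43 differed from neither line by these thresholds, which does not show that they were alike.

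**Figure D5:**
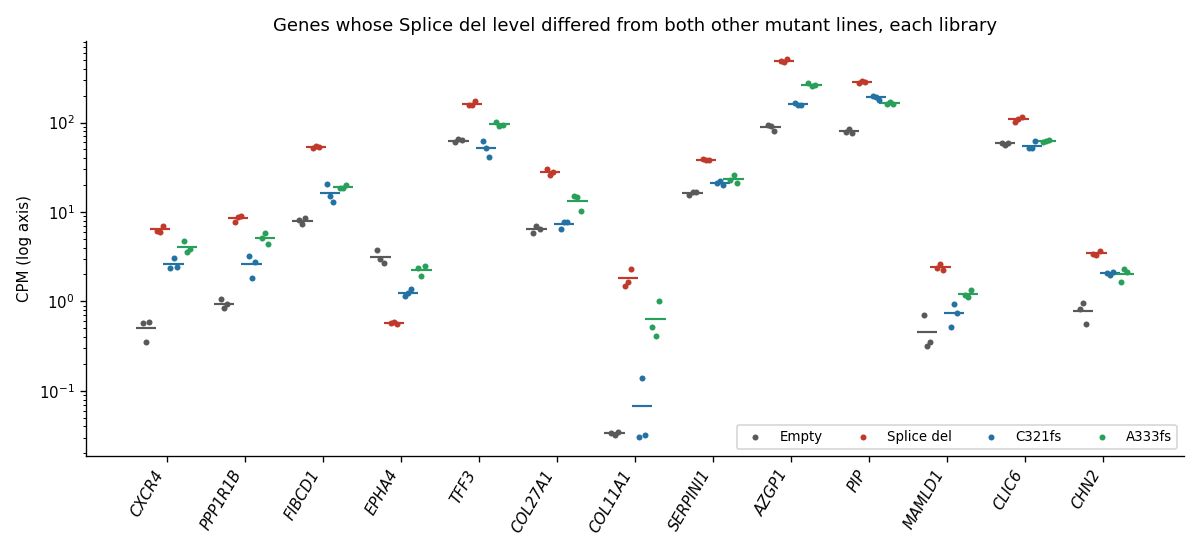
CPM in each of the 12 libraries (points, log axis) with the line's mean (bar) for the 13 named genes whose Splice del level differed from both C321fs and A333fs cells in the same direction in both fits. EPHA4 is lowest in Splice del cells and the other 12 genes highest, with mean values for AZGP1 of 489 CPM in Splice del and at most 266 CPM in any other line.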

How the data were processed

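RNA of T47D pools was sequenced as paired-end libraries in 1 lane. The authors trimmed the reads, aligned them to hg38 and counted fragments per gene with featureCounts without strand. The deposited counts are raw whole numbers per gene and library, neither scaled nor pooled. The file header names STAR output and the submitters' processing notes name HISAT2, so the aligner is not settled. Columns were matched to samples by the library name in brackets. Of 26485 genes, 14789 passed filterByExpr in edgeR 4.0.16 (R 4.3.3), and all 12 RNA libraries were fitted in 1 model with TMM scaling (glmQLFit, glmQLFTest), with Benjamini-Hochberg adjustment over all tested genes, calls at an adjusted p under 0.01 with a fold change above 1.5. For the corrected fit, a loess trend (span 0.3) of each library over exonic GC content and then log2 exon length, from hg38 and the file's exons, entered as offsets. A line with at most 3 counts in every library was taken at that floor. The floor covers counting error only. Library totals of 27872208 to 36788024 fragments make 3 counts about 0.1 CPM. The procedure was tried on simulated data. Changes were placed there only in genes above a minimum mean count, so recovery at low levels was not tried. Alternatives were RLE and upper-quartile scaling, 2 other filters, the 6 libraries alone, DESeq2 1.42.0, a replicate block, GC alone, other thresholds, GC bins and fits without 1 library, and 1 added after seeing the data removed a level trend. The members, gene lists and named genes were chosen with earlier results of these data known. Named genes were GATA3, the 10 largest increases and decreases, up to 4 genes of each list, and the 3 highest genes in each direction that were called only before correction, and 1 gene of these is not reported here. The ChIP-seq samples were not used here. Figures were drawn with matplotlib.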

Additional observations from a re-analysis of the deposited data

Results flagged for a closer look

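The Splice del effect was compared with that of the other mutant lines by direct contrasts, which stand out for 13 named genes because both differed in the same direction in both fits (quasi-likelihood test of edgeR, Benjamini-Hochberg adjustment). The log2 difference from C321fs and from A333fs cells was 1.29 and 0.65 for CXCR4, 1.70 and 0.74 for PPP1R1B and 1.72 and 1.48 for FIBCD1. It was 1.64 and 0.75 for TFF3, 1.61 and 0.88 for AZGP1 and 0.59 and 0.81 for PIP. Collagen genes showed 1.93 and 1.06 for COL27A1 and 4.71 and 1.46 for COL11A1. COL11A1 was near the counting floor in C321fs cells, so its first value is not a bound. The differences were 0.86 and 0.72 for SERPINI1, 1.74 and 0.99 for MAMLD1, 0.98 and 0.80 for CLIC6 and 0.73 and 0.75 for CHN2. EPHA4, which was lower, gave -1.13 and -1.97. These genes were named by their Splice del values against Empty, which also enter these contrasts, so nothing is read from their direction. Each line was 1 pool, so a line and its pool cannot be told apart.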

How the results depend on the processing

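Leaving out 1 library gave 743 to 974 genes up and 479 to 807 down, 514 to 585 and 160 to 208 of them in both fits, and a GC slope difference of -0.246 to -0.194. Upper-quartile scaling gave 348 down, 114 in both fits, with 79.1% of calls up in place of 57.8% and a median over all genes of 0.12 in place of 0.03. Removing GC and length trends gave 235 down (76.9% of calls up), GC alone 247, and GC, length and level 610 up and 246 down, where GATA3 (0.058) and KRT19 (0.051) turned positive. Without a fold minimum there were 2766 up and 3314 down, 1559 and 2383 in both fits, and tested against a fold of 1.5 there were 213 and 63, 167 and 39 in both. Deviations of libraries with the same number correlated at 0.0007, -0.066 and -0.12. Libraries with different numbers were not compared in this way, so pairing by number is not settled. A replicate block gave 893 up and 668 down, and with GC and length removed 234 down. Of 110 named genes, 95 had a value under all 17 settings, and 72 of these kept direction and call. The other 15 did not pass the minimum of 10 counts in every library, and 14 of them kept both under the rest. RLE scaling, DESeq2, other filters and the 6 libraries alone kept all 4 counts within 1.5 times. At low levels depth limits the fold, as for the 20 increases with at most 3 counts in each Empty library.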
